A study of Medicago truncatula with 9 samples.

Results

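The genes described here are the auxin response and auxin transport loci of Medicago truncatula, followed in mature seeds of the wild type and of 2 hsfa9 mutant lines. Members were chosen by words alone: a locus was taken when the description that the authors paired with it contained auxin, SAUR, indole-3-acetic or a numbered PIN. This gave 224 of 36695 loci, represented by 290 of 42631 transcript models, and the rule itself uses no measured value, although the group was proposed with earlier results of these data known. The wild type was R108, and both mutants, hsfa9-1 (NF10440) and hsfa9-2 (NF13157), carry Tnt1 retrotransposon insertions in the R108 background. HSFA9 is a heat stress transcription factor active in seeds, and each mutant is a single insertion line, a kind of line that in general carries further Tnt1 insertions elsewhere in the genome. Each genotype had 3 libraries, and every library was made from 50 seeds taken from different plants of a culture room with a 16 h day and temperatures of 20 °C and 19 °C. Drying of the pods took place in air of 43% relative humidity, and seeds were held at 20 °C before extraction.

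Auxin is the plant hormone of cell expansion, organ patterning and embryo polarity. It is perceived by TIR1-type F-box receptors together with Aux/IAA proteins, which are repressors that are degraded when auxin binds and then release the auxin response factors (ARFs), the DNA-binding factors of the pathway. Aux/IAA, SAUR and GH3 genes are the classical early response genes, while AUX1/LAX influx carriers, PIN efflux carriers and ABCB transporters move the hormone from cell to cell. In seeds of Arabidopsis, auxin acts on embryo patterning and seed size and strengthens dormancy.

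Transcript levels are FPKM, fragment numbers divided by transcript length and by library size, summed over the models of a locus, so that levels can be compared between loci per length. A change is a difference of group means of log2(FPKM + 1), which understates the ratio of weakly expressed loci. It was tested in limma over all loci that reached 1 FPKM in 3 or more libraries, with Benjamini-Hochberg adjustment over all of them and a threshold of 0.05. All p-values measure the spread between libraries of pooled seeds. Listed FPKM summed to between 922800.58 and 981284.54 per library. Relative depth was inferred from the commonest ratio of low FPKM values between libraries, assuming whole-read counting, and ranged from 0.989 to 1.008. That assumption was not checked, and absolute depth is unknown beyond a stated average of 24 M reads of 50 bases. The mark of mature seed was a set of 64 loci with vicilin, legumin or oleosin in the description, also within longer words. Their summed FPKM ranged from 15797.6 to 17193.5 in R108, from 12695.1 to 16747.0 in hsfa9-1 and from 18928.6 to 21249.1 in hsfa9-2. Of these seed loci 22 reached the filter level. Loci described as chlorophyll a-b binding or with the words photosystem I, which also meet photosystem II, were 82 in number. They summed to between 2629.0 and 2904.1 FPKM in R108, between 2151.6 and 2916.2 in hsfa9-1 and between 1811.3 and 2176.2 in hsfa9-2. The 94 nodule-described loci summed to between 761.9 and 966.4 FPKM in R108, and to between 2140.7 and 2423.9 and between 2356.0 and 3873.9 in the mutants, nearly all of it in 2 glycine-rich peptide loci, while the 8 leghemoglobin loci reached at most 18.14 FPKM. The 2 seed coat loci, anthocyanidin and leucoanthocyanidin reductases, stayed at or under 0.9 FPKM in summed level. The part that these marker sets play in the auxin loci was not tested, and in these whole-seed RNAs fewer cells of a type and less RNA per cell cannot be told apart.

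Of the 224 auxin loci, 95 passed the filter (42.4%, against 47.7% of all loci) and 129 did not. Among the latter, 24 were listed at 0 in all 9 libraries, 6 reached 1 FPKM in any library, and the highest single value was 1.5 FPKM. Of the 95, 5 passed through R108 libraries alone (Medtr3g092220, Medtr4g084870, Medtr5g024970, Medtr5g082220 and Medtr7g062540) and were called lower in both mutants. Another 5 passed through mutant libraries alone (Medtr1g023180, Medtr2g102340, Medtr5g067350, Medtr7g101740 and Medtr8g014520) and were called higher in both. The filter fixed the direction of these loci, so their calls are no support for it, and among the other 85, 28 rose and 23 fell in hsfa9-1 and 28 rose and 27 fell in hsfa9-2. The 85 are not free of the filter. Some reached 1 FPKM in fewer than 3 libraries of R108 (for example Medtr4g072980 and Medtr2g066830) or of a mutant (Medtr1g093240). The matching share over all tested loci was not computed. Of all 95 in hsfa9-1, 33 rose, 28 fell and 34 did not pass the test, so that 64.2% were called against 59.5% of all 17508 tested loci. In hsfa9-2, 33 rose, 32 fell and 30 did not pass, which is 68.4% called against 62.3% of all tested loci. The shares called thus lay near those of the seed transcriptome as a whole. The median change of the auxin loci was -0.08 in hsfa9-1 and -0.14 in hsfa9-2, and that of all tested loci was -0.04 and -0.10. Changes of at least 1 on the log2 scale were called in 25 auxin loci in hsfa9-1 (26.3%, against 16.1% of all tested loci) and in 24 in hsfa9-2 (25.3% against 17.4%). These counts include loci whose direction the filter fixed, such as Medtr2g102340, Medtr5g024970 and Medtr7g062540. They also include both Medtr1g076270 and Medtr1g093350, which held identical values. How many of all tested loci were fixed in that way was not counted, so no excess is read from these shares. Libraries of R108 and the mutant did not overlap for 64 auxin loci in hsfa9-1 (67.1% of all tested loci did not overlap) and for 69 in hsfa9-2 (66.4%). Both mutants were compared with the same R108 libraries. In both, 30 auxin loci rose and 26 fell, 58.9% of those tested, where 53.3% of all tested loci did so (23.4% higher and 30.0% lower), and no auxin locus rose in one mutant and fell in the other. When each library was centred on its median, which shifted the reference by -0.07 in hsfa9-1 and -0.12 in hsfa9-2 on the log2 scale, 37 auxin loci rose and 23 fell in hsfa9-1, and 35 rose and 27 fell in hsfa9-2. For all tested loci in hsfa9-1 the centring turned 4828 higher and 5584 lower into 5531 higher and 4888 lower. In hsfa9-2 it turned 4511 higher and 6391 lower into 5634 higher and 5070 lower. The summed level of all auxin loci was 1733 ± 31.3 FPKM in R108, against 1923 ± 53.7 in hsfa9-1 and 1746 ± 84.8 in hsfa9-2 (SD, n = 3, as for all errors below).

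**Figure D1:**
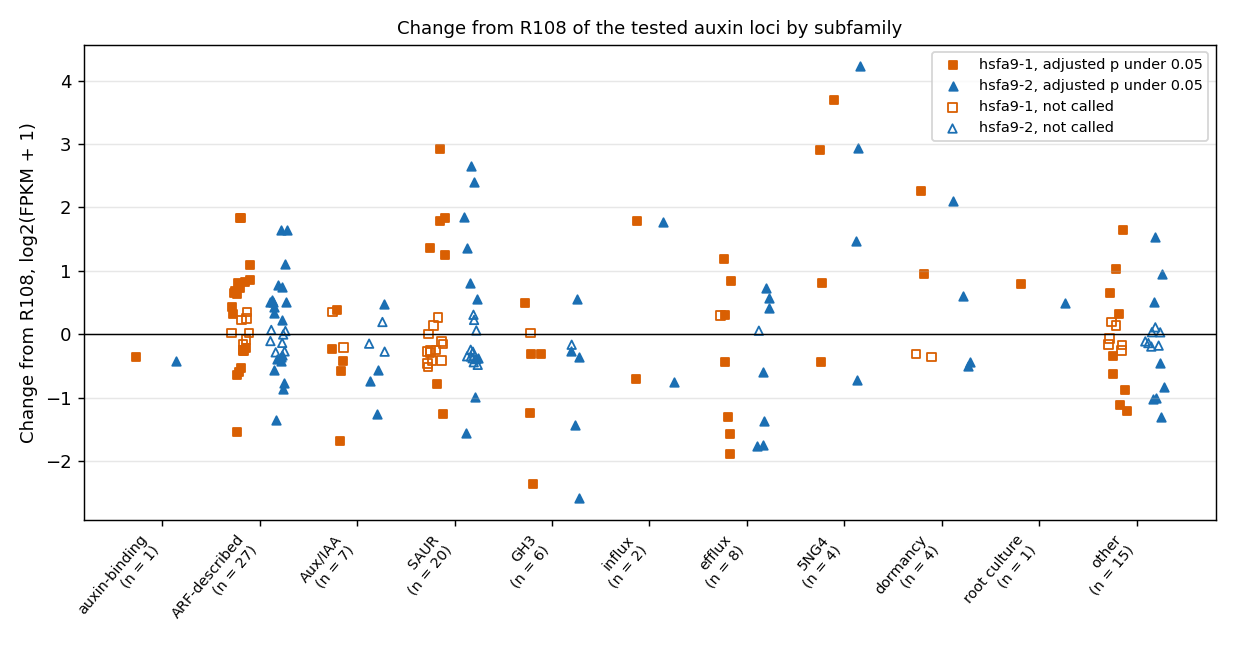
Change from R108 (difference of mean log2(FPKM + 1)) of the 95 tested auxin loci by subfamily, squares for hsfa9-1 and triangles for hsfa9-2, filled where the adjusted p from limma was under 0.05. Every larger subfamily holds loci above and below 0, the 5NG4-type loci reach the highest values (3.70 and 4.23), and a GH3 locus the lowest (-2.36 and -2.58).

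No member was described as a TIR1-type receptor, and 7 loci were described as auxin-binding, several of them as ABP19a or ABP19b. Of these 7, 1 passed the filter, Medtr1g089810, whose description is that of an endoplasmic reticulum auxin-binding protein, the family of ABP1, a protein once taken for the auxin receptor. It was listed at 21.11, 23.03 and 24.75 FPKM in R108, at 15.71, 19.87 and 17.86 in hsfa9-1 and at 17.7, 19.76 and 13.92 in hsfa9-2. The mutant libraries lay below all R108 libraries, by a narrow gap. The fall was 0.35 in hsfa9-1 (adjusted p = 0.0346, limma) and 0.41 in hsfa9-2 (adjusted p = 0.0161). In hsfa9-1 the call was lost without R108 replicate 2 or 3 or hsfa9-1 replicate 1 or 3 (adjusted p from 0.0708 to 0.128), and under median centring (0.0547), and in hsfa9-2 without replicate 3 of R108 or of hsfa9-2 (0.051 to 0.0606).

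The Aux/IAA repressors described as such were 16 loci, of which 7 passed the filter. In hsfa9-1, 4 fell, 1 rose and 2 did not pass the test (71.4% called, against 59.5% of all tested loci), and in hsfa9-2, 3 fell, 1 rose and 3 did not pass (57.1% against 62.3%). Their summed level was 133 ± 1.10 FPKM in R108, against 96.6 ± 1.49 in hsfa9-1 and 93.2 ± 5.44 in hsfa9-2, and most of it came from Medtr2g100780. That locus was listed at 79.94, 76.89 and 75.85 FPKM in R108, at 51.96, 55.24 and 48.86 in hsfa9-1 and at 44.25, 44.18 and 51.38 in hsfa9-2. Every R108 library stood above every mutant library, and the mutants overlapped each other. The change was -0.57 ± 0.08 (SE) in hsfa9-1 (adjusted p = 8.44e-05, limma) and -0.73 ± 0.08 in hsfa9-2 (adjusted p = 1.31e-05). Medtr1g093240 had the largest change of the family. It was listed at 3.27, 3.76 and 4.43 FPKM in R108, at 0.47, 0.08 and 1.12 in hsfa9-1 and at 1.33, 0.66 and 1.12 in hsfa9-2, and the groups of R108 and mutants were well apart. Its change was -1.68 (adjusted p = 0.000122) in hsfa9-1 and -1.25 (adjusted p = 0.000884) in hsfa9-2. Medtr8g103030 also fell, from 7.46 ± 0.536 FPKM to 5.31 ± 0.317 and 4.76 ± 0.723. The second most abundant repressor, Medtr5g030710, was listed at 37.1 ± 1.06, 31.4 ± 2.80 and 33.6 ± 3.60 FPKM. Its small fall in hsfa9-1 (-0.23, adjusted p = 0.0436) was lost without any single R108 library or hsfa9-1 replicate 1 or 2 (adjusted p from 0.0763 to 0.14). It was also lost under median centring and other settings (0.0527 to 0.166), and in hsfa9-2 the locus did not pass the test. Medtr1g109510 was the member that rose, from 2.13 ± 0.460 to 3.10 ± 0.592 and 3.34 ± 0.242 FPKM, and its call in hsfa9-1 was lost without any single library other than R108 replicate 3 and hsfa9-1 replicate 1 (adjusted p from 0.0511 to 0.16), and in hsfa9-2 without R108 replicate 2 (0.0662).

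A further 7 loci are described as auxin response factors but carry the KEGG entry for Aux/IAA proteins in the same deposited table, and the files do not settle which name is right. All 7 passed the filter, 6 rose in both mutants (of all tested loci 23.4% did), and 1, Medtr1g040675, did not pass the test in either. The 6 include Medtr5g067350 and Medtr8g014520, whose direction the filter fixed, so the count cannot be set against that share as it stands. This split by KEGG entry was made after the values were seen and is a description. Medtr1g076270 and Medtr1g093350 held identical values in all 9 libraries, so their reads cannot be told apart. With this pair counted once 5 of 6 rose in each mutant, the loci fixed by the filter still included. Both loci of the pair were listed at 4.16, 3.5 and 3.87 FPKM in R108, at 16.95, 16.01 and 15.54 in hsfa9-1 and at 11.56, 15.31 and 16.01 in hsfa9-2. The mutant libraries stood far above R108 throughout, with the lowest in hsfa9-2 replicate 1. The ratio of means was 4.21 in hsfa9-1 and 3.72 in hsfa9-2, and the changes of 1.83 and 1.65 had adjusted p of 4.31e-07 and 8.38e-07 (limma). Medtr6g488150 stood at 4.01, 4.52 and 5.1 FPKM in R108, at 11.02, 10.62 and 10.86 in hsfa9-1 and at 9.49, 11.35 and 12.03 in hsfa9-2, again without overlap with R108. Medtr1g069495, the most abundant of these loci, rose from 15.1 ± 1.13 to 19.1 ± 0.170 and 21.9 ± 2.29 FPKM. Medtr8g014520 and Medtr5g067350, which passed the filter through mutant libraries alone, were under 1 FPKM in every R108 library, the former going from 0.47 ± 0.044 to 1.6 ± 0.360 and 1.52 ± 0.214 FPKM, the latter from 0.487 ± 0.060 to 1.31 ± 0.061 and 1.14 ± 0.310 FPKM. With the most abundant model in place of the sum, Medtr8g014520 was not called in either mutant (adjusted p = 0.118 and 0.0903). With the identical pair counted once, the loci so described summed to 25.6 ± 1.01 FPKM in R108, against 50.6 ± 1.32 in hsfa9-1 and 50.7 ± 5.73 in hsfa9-2. All loci with the Aux/IAA entry, whichever way they are described, then numbered 22 and summed to 159 ± 1.12, 147 ± 0.387 and 144 ± 10.4 FPKM. Counted in the same way, 6 of 13 tested loci rose in each mutant, Medtr5g067350 and Medtr8g014520 among them, while 4 fell in hsfa9-1 and 3 in hsfa9-2. With both members of the pair included the sums were 162 ± 1.41, 163 ± 0.564 and 158 ± 12.8 FPKM, so the size of the total depends on how that pair is treated.

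**Figure D2:**
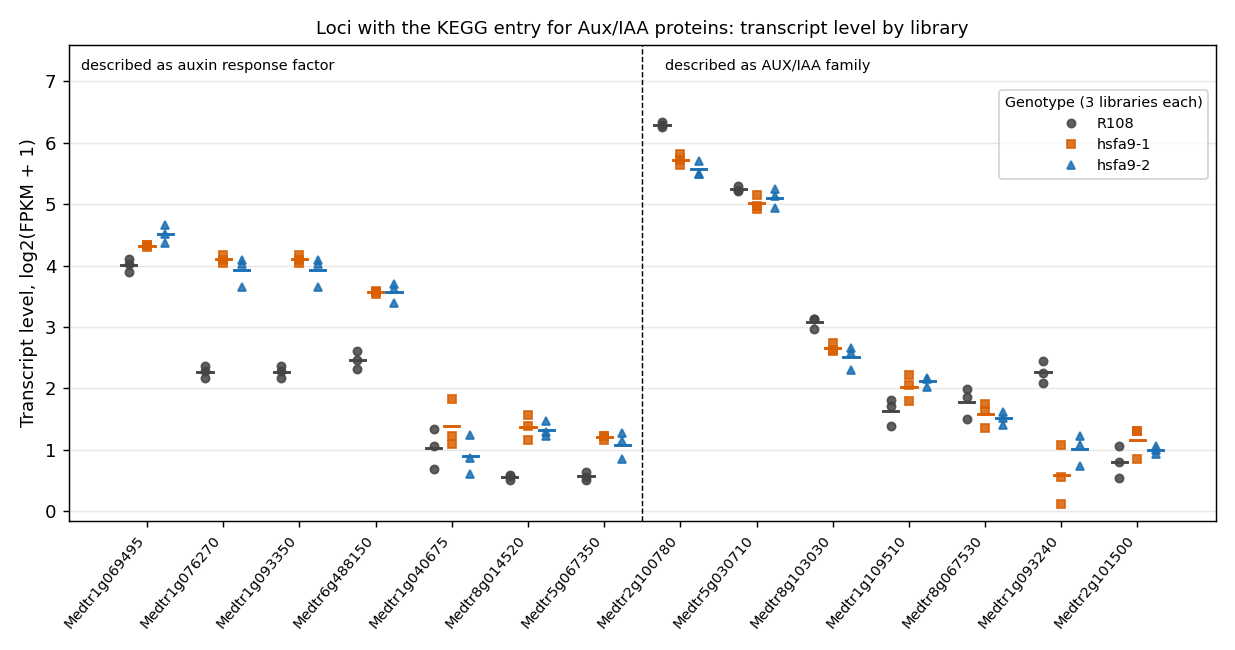
Transcript level, log2(FPKM + 1), in every library of the 14 tested loci with the KEGG entry for Aux/IAA proteins, with R108 as circles, hsfa9-1 as squares, hsfa9-2 as triangles and group means as bars. Of the 7 loci described as auxin response factors (left), 6 lie higher in both mutants, a direction that the filter fixed for Medtr5g067350 and Medtr8g014520. Of the 7 loci described as AUX/IAA family (right) 4 fell and 1 rose in hsfa9-1, the calls of Medtr5g030710 and Medtr1g109510 depending on the setting.

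Auxin response factors proper, with the KEGG entry of that name, were 35 loci, of which 20 passed the filter. In hsfa9-1, 6 rose, 6 fell and 8 did not pass the test (60.0% called, against 59.5% of all tested loci), and in hsfa9-2, 6 rose, 8 fell and 6 did not pass (70.0% against 62.3%). Their summed level was 512 ± 26.1 FPKM in R108, against 473 ± 21.1 in hsfa9-1 and 428 ± 38.8 in hsfa9-2. The leading locus was Medtr2g005240, described as ARF2, a transcriptional repressor that restrains seed growth in Arabidopsis. It stood at 157.99, 147.53 and 146.54 FPKM in R108, at 130.74, 131.49 and 125.15 in hsfa9-1 and at 120.83, 111.18 and 105.56 in hsfa9-2. The 3 genotypes did not overlap, with R108 highest and hsfa9-2 lowest. Its change was -0.22 in hsfa9-1 (adjusted p = 0.0134, limma) and -0.42 in hsfa9-2 (adjusted p = 0.000241), and the difference between the mutants did not pass the test (adjusted p = 0.215). Without hsfa9-1 replicate 3 the call in hsfa9-1 was lost, with an adjusted p of 0.0502.

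Medtr8g100050, also described as ARF2, was the next in abundance at 95.08, 89.75 and 87.6 FPKM in R108, and stood at 64.0, 65.03 and 59.43 in hsfa9-1 and at 64.08, 61.08 and 58.17 in hsfa9-2. The mutants overlapped each other well below R108, with ratios of means of 0.692 and 0.673 and adjusted p of 4.78e-05 and 2.6e-05. Other loci of the ARF2 description did not move as a block. Medtr4g124900 fell from 62.6 ± 2.78 to 51.9 ± 4.56 and 48.2 ± 6.50 FPKM. Its call in hsfa9-1 was lost without any single library other than hsfa9-1 replicate 2 and hsfa9-2 replicates 1 and 3 (adjusted p from 0.0508 to 0.149), and under median centring and other settings (0.0801 to 0.103). Medtr2g018690 fell from 10.8 ± 0.537 to 6.85 ± 0.706 and 5.53 ± 0.646 FPKM. Medtr3g064050 rose from 5.20 ± 0.764 to 9.22 ± 0.096 and 7.85 ± 1.01 FPKM. Medtr2g043250 was listed at 39.2 ± 2.85, 46.2 ± 4.58 and 46.3 ± 3.62 FPKM and lay at the threshold in both mutants (adjusted p = 0.05, not called, and 0.0443, called). Without single libraries its adjusted p ranged down to 0.0174 in hsfa9-1 (called without R108 replicate 1, hsfa9-1 replicate 3 or hsfa9-2 replicate 1 or 3) and up to 0.14 in hsfa9-2 (lost without R108 replicate 2 or 3, hsfa9-1 replicate 1 or hsfa9-2 replicate 1 or 2). Medtr4g021580 fell in hsfa9-2 (18.2 ± 0.909 to 13.9 ± 0.809 FPKM, adjusted p = 0.00142) and was at 17.2 ± 0.520 FPKM in hsfa9-1 (adjusted p = 0.397), and the difference between the mutants did not pass the test (adjusted p = 0.114). With its most abundant model in place of the sum the fall of Medtr4g021580 was not called (adjusted p = 0.0691).

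The lowest change among the response factors on the log2(FPKM + 1) scale was that of Medtr7g062540, another locus described as ARF2. It was listed at 2.21, 1.61 and 2.26 FPKM in R108, at 0.03, 0.05 and 0.05 in hsfa9-1 and at 0.3, 0.14 and 0.11 in hsfa9-2. Its transcript was near 0 in all mutant libraries, lowest in hsfa9-1. The change was -1.53 and -1.35, given without a test because the locus passed the filter through R108 alone. Among those that rose, Medtr4g058930 went from 9.76 ± 0.990 FPKM to 18.5 ± 1.38 and 17.0 ± 0.636, with changes of 0.86 and 0.74. Medtr8g446900, described as ARF14, rose from 10.5 ± 0.880 to 14.6 ± 0.606 and 13.5 ± 0.773 FPKM. Medtr2g014770, described as ARF3, a factor of organ polarity in Arabidopsis, rose from 4.98 ± 0.901 to 8.30 ± 0.700 and 7.02 ± 0.265 FPKM, a rise that in hsfa9-2 was not called for its most abundant model alone (adjusted p = 0.0687).

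SAUR genes encode small proteins that promote cell expansion and are the largest family of early auxin response genes. They were also the largest subfamily here, with 71 loci, of which 20 passed the filter (28.2%) and 10 were listed at 0 in every library. In hsfa9-1, 5 of the tested SAUR loci rose, 2 fell and 13 did not pass the test (35.0% called, against 59.5% of all tested loci), and in hsfa9-2, 6 rose, 3 fell and 11 did not pass (45.0% against 62.3%). The 3 most abundant, Medtr3g110032, Medtr3g110035 and Medtr8g094980, behaved differently. Medtr8g094980 was near 1 FPKM in R108 (0.75, 1.31 and 1.14) and stood at 19.86, 13.08 and 11.8 in hsfa9-1 and at 11.45, 13.52 and 10.85 in hsfa9-2. All mutant libraries stood several-fold above R108, hsfa9-1 replicate 1 the highest. Its ratio of means was 14.0 in hsfa9-1 and 11.2 in hsfa9-2, with changes of 2.92 and 2.65 (adjusted p = 3.32e-07 and 6.26e-07, limma). Medtr3g110032, the SAUR locus with the highest level in R108, was listed at 12.7 ± 0.736, 9.68 ± 3.35 and 9.17 ± 1.03 FPKM and did not pass the test in either mutant (adjusted p = 0.0799 and 0.0601). It was called lower in hsfa9-1 without hsfa9-1 replicate 1 (0.00218), and in hsfa9-2 without hsfa9-1 replicate 1 or 2 (0.00836 to 0.0242). Its neighbour by number Medtr3g110035, at 8.68 ± 1.68, 7.10 ± 0.575 and 6.46 ± 0.885 FPKM, passed in hsfa9-2 (adjusted p = 0.0429). That call was lost without any single library other than R108 replicate 3 and hsfa9-2 replicate 1 (0.0511 to 0.16), and under median centring and other settings (0.053 to 0.143). Without R108 replicate 3 the locus also passed in hsfa9-1 (0.0261).

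Medtr4g072980 was listed at 0.86, 1.5 and 0.65 FPKM in R108, at 6.85, 6.07 and 4.71 in hsfa9-1 and at 8.29, 10.88 and 9.41 in hsfa9-2, so that the 3 genotypes did not overlap. Its changes were 1.79 and 2.41 (adjusted p = 1.01e-05 and 1.01e-06), and the difference between the mutants, 0.62, did not pass the test (adjusted p = 0.156). Medtr4g025830 rose from 1.08 ± 0.12 FPKM to 6.53 ± 1.87 and 6.61 ± 1.65. Medtr2g066830 rose from 1.06 ± 0.647 FPKM to 3.81 ± 0.846 and 2.55 ± 0.629. Medtr7g101740 was listed at 0 in R108 replicates 2 and 3 and at 0.17 in replicate 1, against 2.59, 2.27 and 0.69 in hsfa9-1 and 2.11, 2.46 and 0.86 in hsfa9-2. Medtr3g092220 was lower in the mutants and stood at 2.63, 2.1 and 3.18 FPKM in R108, at 0.35, 0.88 and 0.35 in hsfa9-1 and at 0.36, 0 and 0.35 in hsfa9-2. The changes were -1.26 and -1.56, with every mutant library under 1 FPKM, and no test is given because R108 alone carried it through the filter. SAUR genes form arrays of similar copies, and how the authors' counting divided reads among them is not given in the sources used here, which also holds for the GH3, 5NG4 and ABCB loci below.

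GH3 enzymes couple amino acids to auxin or to jasmonate, which lowers free auxin in the former case and activates jasmonate in the latter. Of 13 loci described as indole-3-acetic acid-amido synthetases 6 passed the filter, and 4 fell, 1 rose and 1 did not pass the test in each mutant (83.3% called, against 59.5% and 62.3% of all tested loci). The 5 tested loci without a rise carry the KEGG entry of a jasmonic acid-amino synthetase, although the description names auxin. With libraries centred on their medians 3 of these fell in hsfa9-1 and 2 in hsfa9-2. Medtr8g027970 had the lowest change of all auxin loci on the log2(FPKM + 1) scale, although 3 weakly expressed tested loci of other subfamilies (Medtr4g084870, Medtr5g024970 and Medtr7g062540) had lower ratios of means in both mutants. It stood at 16.97, 16.85 and 19.31 FPKM in R108, at 2.32, 2.95 and 2.7 in hsfa9-1 and at 2.52, 1.81 and 2.06 in hsfa9-2. The mutants overlapped each other far below R108, with ratios of means of 0.15 and 0.12. Its changes were -2.36 ± 0.12 and -2.58 ± 0.12 (SE; adjusted p = 7.61e-08 and 4.26e-08, limma). The adjacent numbers of this cluster did not all follow. Medtr8g027965 was listed at 5.13, 4.94 and 4.68 FPKM in R108, at 1.93, 1.27 and 1.34 in hsfa9-1 and at 1.33, 0.97 and 1.33 in hsfa9-2, a fall in both mutants. Medtr8g027955 was at 2.87 ± 0.257, 2.91 ± 0.172 and 2.48 ± 0.524 FPKM, with overlapping libraries and no call.

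Medtr7g117110, the most abundant GH3 locus, fell from 43.4 ± 1.52 to 35.0 ± 2.19 and 36.2 ± 0.702 FPKM, and Medtr8g027920 from 21.6 ± 1.45 to 17.2 ± 0.860 and 16.7 ± 1.79 FPKM. Centring on the median removed the call of the former in hsfa9-2 (adjusted p = 0.122) and of the latter in both mutants (0.0561 and 0.0659), and without R108 replicate 3 the latter was not called in hsfa9-1 (0.0513). The 1 tested locus with the KEGG entry of the auxin-responsive GH3 family, Medtr8g467000, was the one that rose. It was listed at 0.94, 1.45 and 1.07 FPKM in R108, at 2.02, 2.08 and 1.99 in hsfa9-1 and at 1.69, 3.01 and 1.96 in hsfa9-2, and its call in hsfa9-1 (adjusted p = 0.0213) was lost without R108 replicate 1 or 3 or hsfa9-1 replicate 2 (0.0541 to 0.0739). The 13 loci together summed to 92.1 ± 2.69 FPKM in R108, against 61.7 ± 1.22 in hsfa9-1 and 61.4 ± 2.52 in hsfa9-2.

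Influx carriers of the AUX1/LAX family import auxin into cells together with protons. Of 5 such loci 2 passed the filter, and 1 of these did so through R108 alone. Medtr7g067450 was listed at 18.34, 16.78 and 19.22 FPKM in R108, at 68.06, 65.7 and 60.99 in hsfa9-1 and at 64.96, 65.69 and 62.17 in hsfa9-2. Both mutants stood at the same high level, clear of R108. The ratio of means was 3.58 in hsfa9-1 and 3.55 in hsfa9-2, and the changes were 1.79 and 1.77 (adjusted p = 1.71e-08 and 1.7e-08, limma). The difference between the mutants was -0.01, with a 95% interval from -0.17 to 0.14. Medtr5g082220, a weakly expressed carrier, stood at 1.12, 1.69 and 1.07 FPKM in R108, at 0.27, 0.44 and 0.5 in hsfa9-1 and at 0.59, 0.16 and 0.34 in hsfa9-2, a change of -0.70 and -0.75. No test is given for it, since only R108 libraries reached the filter level. In summed level the influx carriers went from 20.7 ± 0.751 FPKM to 65.9 ± 3.53 and 65.1 ± 1.78. Most of that sum in every genotype was Medtr7g067450 (means of 18.1, 64.9 and 64.3 FPKM), so it does not describe a rise of the family.

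Efflux carriers were described in 23 loci, of which 8 passed the filter, and in each mutant 3 rose, 4 fell and 1 did not pass the test (87.5% called, against 59.5% and 62.3% of all tested loci), 2 of the falls being fixed by the filter. Only 2 loci rose in both mutants. Their summed level was 48.1 ± 1.73 FPKM in R108, against 39.7 ± 1.68 in hsfa9-1 and 35.2 ± 1.11 in hsfa9-2. Of the 3 tested loci with the KEGG entry of the auxin efflux carrier family, the family of PIN proteins, which set the direction of auxin flow, 2 fell and 1 rose in both mutants. Medtr4g127100, the most abundant, stood at 18.18, 19.46 and 17.57 FPKM in R108, at 13.08, 14.08 and 12.92 in hsfa9-1 and at 11.88, 12.61 and 11.18 in hsfa9-2. The genotypes did not overlap, with hsfa9-2 lowest, and the changes were -0.43 and -0.59 (adjusted p = 0.000655 and 7.03e-05). Medtr4g084870 was at a low level in R108, at 2.0, 1.42 and 1.51 FPKM against 0.06, 0.03 and 0.11 in hsfa9-1 and 0.03, 0.03 and 0 in hsfa9-2. Its changes were -1.30 and -1.37, with no test because it passed the filter through R108 alone. Medtr6g069510 was the one that rose, from 1.92 ± 0.287 FPKM to 4.24 ± 0.475 and 3.85 ± 0.219.

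The remaining 5 tested efflux loci carry a KEGG entry for an uncharacterized protein. Medtr7g074190 stood at 9.61, 11.04 and 8.94 FPKM in R108, at 3.02, 2.21 and 2.75 in hsfa9-1 and at 2.14, 2.13 and 2.44 in hsfa9-2, a drop to ratios of 0.270 and 0.227 with no overlap with R108. Medtr5g024970 went from 3.92, 2.52 and 2.78 FPKM to 0.16, 0.07 and 0.05 in hsfa9-1 and to 0.36, 0.11 and 0.14 in hsfa9-2 (changes of -1.88 and -1.75, likewise without a test). The opposite direction was seen in Medtr5g024640, at 2.05, 1.05 and 2.11 FPKM in R108, with 5.53, 4.79 and 5.15 in hsfa9-1 and 2.87, 3.07 and 3.07 in hsfa9-2. It rose in both mutants and the genotypes did not overlap, although its most abundant model alone was not called in hsfa9-2 (adjusted p = 0.303). The difference between the mutants of -0.62 did not pass the test (adjusted p = 0.114), but did without R108 replicate 2 (0.0299). Medtr8g006780 was listed at 5.97 ± 0.416, 7.63 ± 1.35 and 8.37 ± 1.88 FPKM, and its rise in hsfa9-2 (adjusted p = 0.0394) was lost without any single R108 library or hsfa9-2 replicate 1 or 3 (0.0606 to 0.144). With its most abundant model alone it was also called in hsfa9-1 (0.0143). Medtr5g054950 rose in hsfa9-1, from 4.21 ± 0.298 to 5.41 ± 0.223 FPKM (adjusted p = 0.0364, limma). In hsfa9-2 it was at 4.45 ± 0.648 FPKM and did not pass the test (adjusted p = 0.662).

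**Figure D3:**
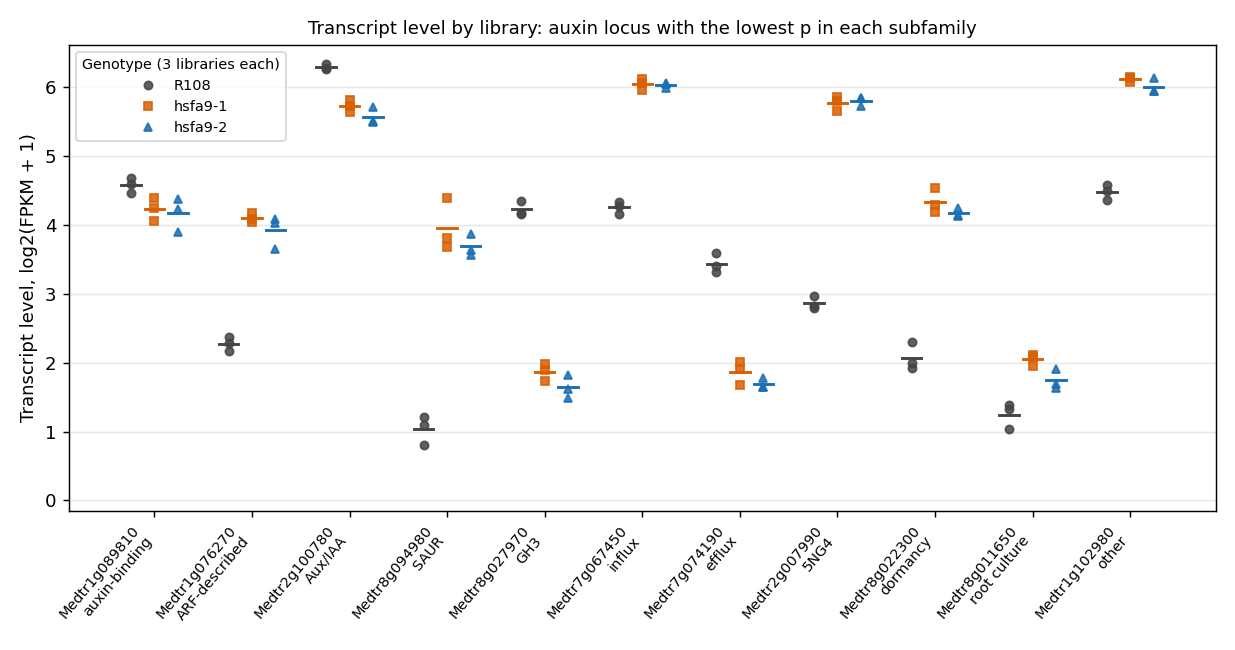
Transcript level, log2(FPKM + 1), in every library for the auxin locus with the lowest p in hsfa9-1 against R108 in each subfamily, with R108 as circles, hsfa9-1 as squares, hsfa9-2 as triangles and group means as bars. The R108 libraries stand apart from all mutant libraries for each of the 11 loci shown, for example 16.78 to 19.22 against 60.99 to 68.06 FPKM for the influx carrier Medtr7g067450. Loci picked by lowest p are bound to stand apart, and 67.1% (hsfa9-1) and 66.4% (hsfa9-2) of all tested loci did not overlap with R108.

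The 5NG4-type loci are named after a pine gene induced by auxin and belong to a family of membrane proteins that includes WAT1, an auxin transporter of the vacuole membrane in Arabidopsis. Of 13 loci 4 passed the filter, and 3 rose and 1 fell in both mutants, where 59.5% and 62.3% of all tested loci were called. The filter fixed 2 of the rises, those of Medtr2g102340 and Medtr1g023180, which passed through mutant libraries alone. Medtr2g102340 had the largest change of all auxin loci on the log2(FPKM + 1) scale. It was listed at 0, 0 and 0.06 FPKM in R108, at 10.79, 13.28 and 12.85 in hsfa9-1 and at 14.39, 23.47 and 17.42 in hsfa9-2. The transcript was thus all but absent from R108 and present in every mutant library, highest in hsfa9-2. Its changes were 3.70 ± 0.16 and 4.23 ± 0.16 (SE), with no ratio given because R108 was at or near 0 and no test because the filter fixed the direction. Medtr2g007990 stood at 6.08, 5.92 and 6.79 FPKM in R108, at 49.49, 56.99 and 54.37 in hsfa9-1 and at 51.72, 56.35 and 56.23 in hsfa9-2. The mutants coincided, with ratios of means of 8.56 and 8.74 and changes of 2.91 and 2.94 (adjusted p = 2.33e-09 and 1.89e-09). Medtr1g023180 was listed at 0 in all R108 libraries and at 0.55, 0.84 and 0.92 FPKM in hsfa9-1 and 1.97, 1.45 and 1.94 in hsfa9-2. Medtr3g112480 was the one that fell, from 4.71 ± 0.593 FPKM to 3.21 ± 0.199 and 2.48 ± 0.419, and its most abundant model alone was not called in hsfa9-1 (adjusted p = 0.456). The 13 loci summed to 11.3 ± 1.05 FPKM in R108, against 70.0 ± 5.48 in hsfa9-1 and 77.5 ± 6.98 in hsfa9-2.

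Auxin-repressed and dormancy-associated proteins are small proteins of unclear function whose transcripts mark dormant buds. All 4 loci passed the filter, and they include the 2 most abundant auxin loci of R108. Medtr8g022300 stood at 2.79, 3.9 and 3.0 FPKM in R108, at 17.24, 18.62 and 22.14 in hsfa9-1 and at 16.44, 16.62 and 17.96 in hsfa9-2. The rise was 5.99-fold and 5.27-fold by the means (changes of 2.27 and 2.10, adjusted p = 1.12e-07 and 1.74e-07, limma). Medtr1g083440, abundant already in R108 at 170.59, 214.03 and 207.8 FPKM, reached 332.79, 403.03 and 413.58 in hsfa9-1 and 350.06, 287.46 and 267.45 in hsfa9-2. It rose in both mutants without overlap with R108 (changes of 0.95 and 0.61, adjusted p = 7.92e-05 and 0.00166). Medtr2g014240, the most abundant auxin locus in R108, was listed at 189.06, 215.88 and 249.09 FPKM in R108, with 162.01, 147.01 and 203.94 in hsfa9-1 and 136.18, 181.71 and 144.7 in hsfa9-2. It fell in hsfa9-2 (-0.50, adjusted p = 0.0125), a call lost without R108 replicate 3 (0.0546). It missed the threshold in hsfa9-1 (-0.35, adjusted p = 0.0589) but passed without R108 replicate 1, hsfa9-1 replicate 3 or hsfa9-2 replicate 2 (0.0166 to 0.0402). Medtr7g112860 was at 119 ± 11.5, 96.3 ± 14.2 and 89.3 ± 20.7 FPKM. Its call in hsfa9-2 (adjusted p = 0.0362) was lost without R108 replicate 1 or 3 or hsfa9-2 replicate 1 or 3 (0.0607 to 0.125), and under median centring and other settings (0.0647 to 0.0998). Without hsfa9-2 replicate 3 the locus passed in hsfa9-1 (0.0481). The family's sum was 538 ± 58.0 FPKM in R108, against 670 ± 73.7 in hsfa9-1 and 562 ± 55.0 in hsfa9-2. The locus described as auxin-induced in root cultures, Medtr8g011650, related to a membrane cytochrome of Arabidopsis, rose from 1.39 ± 0.295 FPKM to 3.14 ± 0.250 and 2.36 ± 0.346.

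A further 29 members, of mixed description, included 15 that passed the filter. Of these 4 rose and 5 fell in hsfa9-1 (60.0% called, against 59.5% of all tested loci), and 3 rose and 5 fell in hsfa9-2 (53.3% against 62.3%). Medtr1g102980, described as an auxin canalization protein, a name that refers to the narrowing of auxin flow into vein-forming files of cells, stood at 21.4, 22.91 and 19.45 FPKM in R108, at 69.13, 66.48 and 70.04 in hsfa9-1 and at 69.04, 60.77 and 60.45 in hsfa9-2. Its ratios of means were 3.23 and 2.98 (changes of 1.65 and 1.53, adjusted p = 5.45e-08 and 7.76e-08). Medtr1g041395, of the same description, fell from 4.26 ± 0.129 to 1.43 ± 0.021 and 1.59 ± 0.212 FPKM. Loci described only as auxin-regulated protein likewise went both ways. Medtr4g063130 fell from 54.57, 57.16 and 57.34 FPKM to 29.81, 28.52 and 32.89 in hsfa9-1 and 26.66, 28.07 and 28.19 in hsfa9-2, without overlap between any of the genotypes (changes of -0.87 and -1.0, adjusted p = 1.61e-06 and 5.5e-07). Medtr4g057330 rose from 3.0 ± 0.495 to 7.13 ± 0.208 and 6.71 ± 1.10 FPKM. Medtr2g026080, described as an auxin-responsive family protein without a SAUR entry, fell from 8.12 ± 0.128 to 2.98 ± 0.610 and 2.72 ± 0.235 FPKM. Medtr7g017100, described as BIG, a giant protein needed for polar auxin transport in Arabidopsis, fell from 26.0 ± 3.39 to 20.2 ± 2.04 and 18.6 ± 1.18 FPKM. The call in hsfa9-1 was lost without R108 replicate 1 or 2 or hsfa9-1 replicate 3 (adjusted p from 0.064 to 0.0743) and under median centring (0.0507). Medtr5g097890, described as a suppressor of auxin resistance and carrying a nuclear pore entry, was at 50.7 ± 2.96, 56.2 ± 3.24 and 52.01 ± 3.02 FPKM and did not pass the test in either mutant (adjusted p = 0.109 and 0.691), though under median centring it was called higher in hsfa9-1 (0.0417).

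The mutants were also compared with each other, which asks whether the insertion lines departed from R108 to different extents. None of the 95 auxin loci passed the test in limma, against 1.12% of all tested loci (0.491% higher and 0.628% lower in hsfa9-2). That background of 196 loci ranged from 94 to 324 when 1 library was left out, and median centring turned its 86 higher and 110 lower into 114 and 78. Among the auxin loci, 15 had an unadjusted p under 0.05 (15.8%, against 14.8% of all tested loci). Libraries of the mutants did not overlap for 19 auxin loci (19.1% of all tested loci did not overlap). The largest difference was -0.88 in the SAUR locus Medtr3g084170, which was listed at 2.0, 2.57 and 2.93 FPKM in R108, with 2.11, 2.37 and 2.18 in hsfa9-1 and 0, 1.64 and 1.03 in hsfa9-2 (adjusted p = 0.22, 95% interval from -1.53 to -0.23). Medtr5g061220, a weakly expressed response factor, stood at 1.4, 1.11 and 1.37 FPKM in R108, with 2.61, 2.53 and 4.17 in hsfa9-1 and 1.8, 1.13 and 1.01 in hsfa9-2. It rose in hsfa9-1 (0.82, adjusted p = 0.00273) and lay at the R108 level in hsfa9-2, and the difference of -0.82 had an adjusted p of 0.0704 (0.0361 without hsfa9-2 replicate 1). The 5NG4-type locus Medtr1g023180 was 0.66 higher in hsfa9-2, and no test is given for it because it passed the filter through hsfa9-2 alone. Medians of the difference were -0.11 for the auxin loci and -0.05 for all tested loci.

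**Figure D4:**
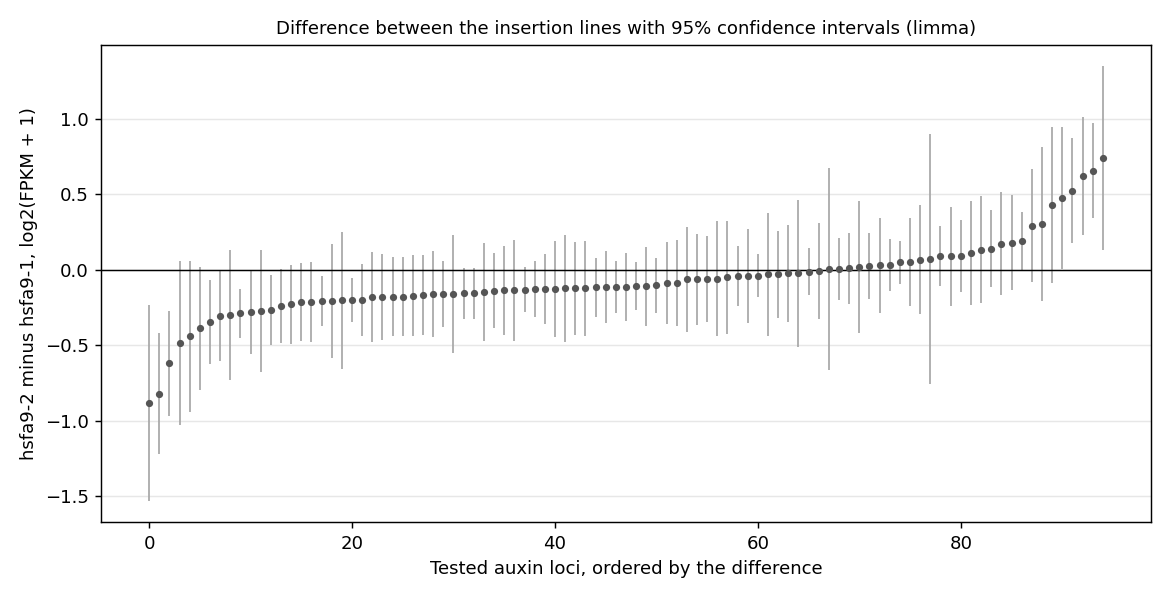
Difference between the insertion lines, hsfa9-2 minus hsfa9-1 in mean log2(FPKM + 1), for the 95 tested auxin loci in order of the difference, with 95% confidence intervals from limma as vertical lines. The differences run from -0.88 to 0.74, most lie near 0, and none passed the adjusted test.

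Loci of the same pathway whose description lacks the searched words were followed from a list by description. The 13 loci of auxin synthesis, described as tryptophan aminotransferases or YUCCA-type monooxygenases, did not pass the filter in any case, and their highest value in any library was 1.38 FPKM. Receptors and co-repressors comprised 15 loci with 12 tested, of which 4 rose and 3 fell in hsfa9-1 and 4 rose and 5 fell in hsfa9-2, which is 7 and 9 of 12 called where 59.5% and 62.3% of all tested loci were. All 6 TIR1-type loci passed the filter, and in each mutant 2 rose and 3 fell. The smallest of these falls, of Medtr7g083610 in hsfa9-1 (36.1 ± 1.69 to 31.3 ± 0.552 FPKM, adjusted p = 0.0217), was lost without R108 replicate 1 or 2 or hsfa9-1 replicate 1 or 3 (0.054 to 0.0786) and under median centring (0.108). Medtr4g091290 rose from 12.6, 11.39 and 11.31 FPKM to 21.51, 23.49 and 23.25 in hsfa9-1 and 22.84, 25.62 and 22.56 in hsfa9-2 (changes of 0.90 and 0.95, adjusted p = 3.92e-06 and 2.34e-06, limma). Medtr5g065490 went the other way, from 14.11, 14.49 and 14.37 FPKM to 5.51, 4.35 and 5.6 in hsfa9-1 and 5.4, 5.18 and 4.38 in hsfa9-2 (changes of -1.32 and -1.36). The most abundant receptor-type locus, Medtr1g088950, was at 217 ± 9.29 FPKM in R108, against 240 ± 4.73 in hsfa9-1 and 239 ± 17.8 in hsfa9-2 and did not pass the test (adjusted p = 0.0812 and 0.0969). It was called higher in both without hsfa9-2 replicate 3 (0.0483 and 0.0275) and under median centring (0.0128 to 0.0418 in hsfa9-1, with only the 2 groups compared included, and 0.0044 in hsfa9-2). Of 6 tested topless-type co-repressors, which Aux/IAA proteins recruit, 2 rose in each mutant and 2 fell in hsfa9-2. Medtr4g009840, the least abundant of them in R108, rose from 10.3 ± 1.81 to 20.6 ± 0.463 and 22.6 ± 1.30 FPKM. Medtr7g112460 rose from 88.9 ± 8.27 to 118 ± 7.99 and 102 ± 5.56 FPKM, a call in hsfa9-2 (adjusted p = 0.0476) that was lost without any single library other than R108 replicate 1 and hsfa9-1 replicate 2 (0.0516 to 0.156). Medtr4g114980 fell in hsfa9-2, from 54.5 ± 3.37 to 42.1 ± 1.39 FPKM (adjusted p = 0.00162), and stood at 49.3 ± 3.97 in hsfa9-1 (0.121). Medtr4g120900 fell in hsfa9-2, from 80.0 ± 6.31 to 66.9 ± 5.17 FPKM (adjusted p = 0.0237), a call lost without R108 replicate 1 or hsfa9-2 replicate 2 or 3 (0.0611 to 0.0915) and under median centring (0.188).

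Hydrolases that release auxin from its amino acid conjugates passed the filter in 7 of 10 loci, of which 2 rose in each mutant and 1 fell in hsfa9-2. That is 2 and 3 of 7 called, where 59.5% and 62.3% of all tested loci were. Medtr3g093030 was among those that rose, from 20.5 ± 1.08 to 28.6 ± 0.878 and 24.7 ± 0.290 FPKM. The wider list of amidohydrolases had 21 loci with 17 tested, of which 5 rose and 2 fell in hsfa9-1 and 4 rose and 4 fell in hsfa9-2. Called were thus 7 and 8 of 17, to be set against the same shares of all tested loci. The list also took in enzymes of other substrates. One of these, Medtr2g060820, described as an amino-terminal asparagine amidohydrolase, fell from 4.30 ± 0.108 to 1.58 ± 0.450 and 1.23 ± 0.258 FPKM. The ABC transporter B family, some members of which carry auxin while others carry different substrates, had 33 loci with 10 tested, of which 4 rose and 2 fell in each mutant (59.5% and 62.3% of all tested loci were called). The locus Medtr1g086080 stood at 4.36, 3.27 and 4.38 FPKM in R108, at 87.33, 82.59 and 85.87 in hsfa9-1 and at 79.93, 95.95 and 83.97 in hsfa9-2, a change of 4.12 and 4.13 (adjusted p = 1.58e-09 and 1.31e-09, limma). Medtr1g086095 was listed at 0.09, 0.01 and 0.14 FPKM in R108, at 3.08, 3.34 and 2.93 in hsfa9-1 and at 2.67, 3.88 and 4.9 in hsfa9-2, so that it passed the filter through mutant libraries alone. The same holds for Medtr1g086150, at 0.12, 0.08 and 0.08 FPKM in R108, 0.9, 1.15 and 0.9 in hsfa9-1 and 1.45, 1.55 and 0.94 in hsfa9-2. Both are among the rises counted above, and the filter fixed their direction. The falls were those of Medtr6g009030, from 3.68 ± 0.435 to 0.863 ± 0.068 and 0.96 ± 0.035 FPKM (1 FPKM being reached in the mutants by hsfa9-2 replicate 3 alone), and of Medtr4g109720. The latter stood at 5.38, 4.75 and 5.59 FPKM in R108, at 4.17, 4.27 and 3.88 in hsfa9-1 and at 2.79, 2.26 and 2.08 in hsfa9-2, without overlap between genotypes. It was the only one of the 39 tested pathway loci outside the word search that was called between the mutants, with a difference of -0.60 (adjusted p = 0.0367, limma). That call was lost without any single library other than hsfa9-2 replicate 1 (0.0565 to 0.137), and under 4 of the other settings (0.0538 to 0.111). Its change in hsfa9-2 was -0.89 (adjusted p = 5.68e-05), and that in hsfa9-1 was -0.29 (adjusted p = 0.0476). The call in hsfa9-1 was lost without R108 replicate 1 or 3, any hsfa9-1 library or hsfa9-2 replicate 2 (0.0573 to 0.14), and under median centring and other settings (0.057 to 0.103). Medtr7g023340 rose from 31.0 ± 2.64 to 52.3 ± 2.20 and 54.5 ± 4.84 FPKM. Whether these ABCB loci carry auxin is not given in the files.

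**Figure D5:**
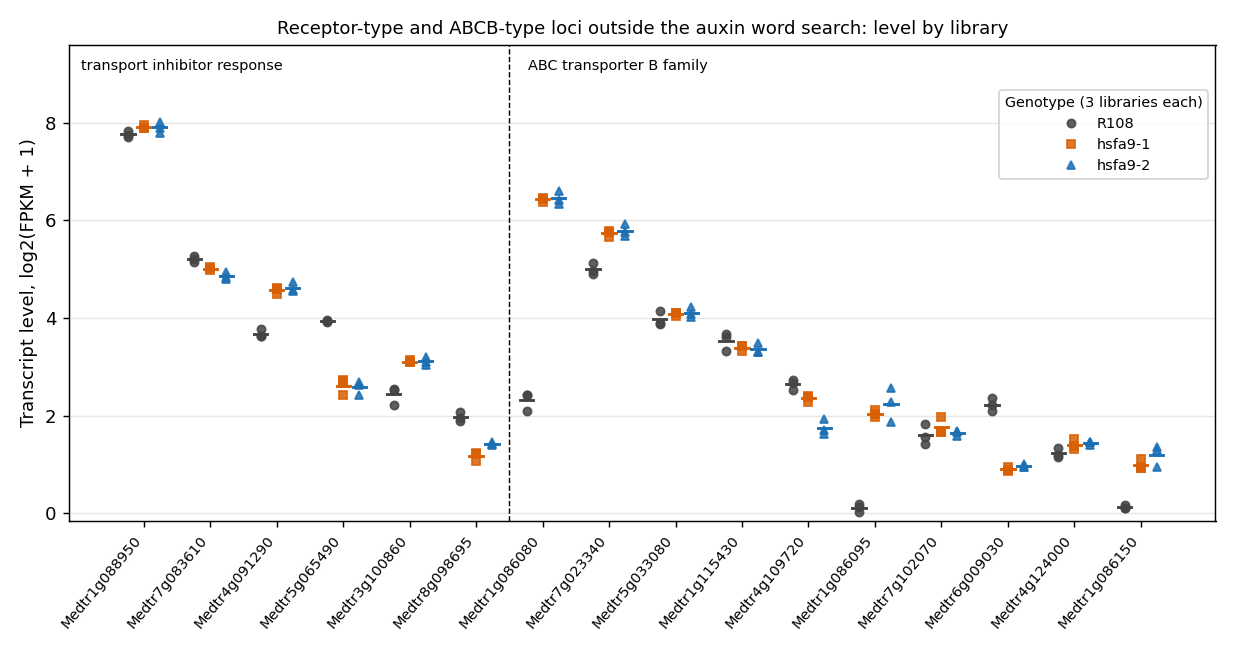
Transcript level, log2(FPKM + 1), in every library of the 6 receptor-type loci (left) and the 10 tested ABC transporter B loci (right), with R108 as circles, hsfa9-1 as squares, hsfa9-2 as triangles and group means as bars. Receptor-type loci move in both directions, and Medtr1g086080 goes from 3.27 to 4.38 FPKM in R108 to between 79.93 and 95.95 in the mutants.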

How the data were processed

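RNA-seq of 9 mature seed libraries was analysed. The authors deposited FPKM values for 42631 transcript models with descriptions and KEGG entries, and RSEM, Bowtie2, HISAT and HISAT2 are listed, with no versions, in the submitters' processing notes. For the genome build, annotation, strand setting and filters, the entry is not given in the sources used here. FPKM were summed per locus, and a locus was kept where 3 or more libraries reached 1 FPKM. All 9 libraries entered 1 limma fit (limma 3.58.1, statmod 1.5.0, R 4.3.3, trend and robust moderation) on log2(FPKM + 1), the code being tested on simulated data. No read counts were used, so no count model was run. Replicate numbers did not pair libraries (correlations of deviations from -0.125 to 0.096 over 9 pairs), and the fit has no block. The alternatives are given at the end.

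Members and lists were chosen with earlier results of these data known. By rule, the text names in each subfamily the 3 tested loci with the highest mean and the 2 with the lowest p in each mutant, in each outside class the 2 with the lowest p in hsfa9-1, members at 1 FPKM or more in 1 genotype only, and members called between the mutants. The rule took 45 loci, 39 of them members. Others, and the division by KEGG entry, were chosen after their values were seen. No locus is described as HSFA9, so the insertions were not checked against its transcript. Promoter, protein and gene coordinates were not analysed here.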

Additional observations from a re-analysis of the deposited data

How the results depend on the processing

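Of 2811 changes of named loci under other settings, 2637 kept direction and side of the threshold, 130 lost the call, 31 gained it and 13 turned sign, none of them called either way. The sign turned for Medtr1g040675 in hsfa9-2 (-0.302 to 0.023 leaving out single libraries), for Medtr5g061220 in hsfa9-2 (0.124 under median centring, -0.146 to 0.093 leaving out single libraries), for Medtr5g097890 with the most abundant model in place of the sum (-0.023 in hsfa9-1, -0.12 in hsfa9-2) and leaving out single libraries (-0.012 to 0.068 in hsfa9-2), and for Medtr8g027955 in hsfa9-1 (-0.038 to 0.053 leaving out single libraries). A filter of at least 5 FPKM left 56 auxin loci, of which 39 changed in hsfa9-1, 42 in hsfa9-2 and 35 in both, because fewer were tested. That filter left 12258 loci in all, of which 8169 changed in hsfa9-1 and 8557 in hsfa9-2. Without 1 library, 56 to 63 of the 95 auxin loci changed in hsfa9-1, 59 to 64 in hsfa9-2 and 53 to 56 in both. Of all 17508 tested loci, 9418 to 10691 then changed in hsfa9-1 and 9915 to 10765 in hsfa9-2.

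Between the mutants 0 or 1 auxin locus was called. Median centring called 1 (Medtr1g023180, which passed the filter through hsfa9-2 alone), leaving out hsfa9-2 replicate 1 called 1 (Medtr5g061220, adjusted p = 0.0361), and leaving out R108 replicate 2 called 1 (Medtr5g024640, adjusted p = 0.0299). Over all tested loci this comparison called 196, 118 with the most abundant model, 126 with no filter and 104 with only the 2 groups compared. Without 1 library it called 94 to 324, the highest without hsfa9-2 replicate 1, and the cause was not tested. Median centring turned its 86 higher and 110 lower into 114 higher and 78 lower. With the replicate number as a block, 64 auxin loci changed in hsfa9-1, 64 in hsfa9-2 and 0 between the mutants. Of all tested loci, 10213 then changed in hsfa9-1, 10716 in hsfa9-2 and 145 between the mutants. Absolute depth is unknown, so no detection limit is given for loci listed at 0.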
